A study of Mus musculus with 8 samples.

Results

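A set of 6 solute carrier genes lay at regions of changed trimethylation of histone H3 at lysine 27 (H3K27me3) in mouse jejunal crypt epithelium after loss of the demethylases Kdm6a and Kdm6b. They were Slc6a20a and Slc6a20b of the SLC6 family, Slc34a1 and Slc34a2 of the SLC34 family, Slc14a1 and Slc39a11. The members were taken as every region of the authors' deposited table whose gene annotation names one of the 6 genes, which gave 8 of 378 regions at 5 loci. The genes were thus chosen by the authors' false discovery rate (FDR), which sets what the table lists, so their fold changes and FDR values are a description of the authors' comparison and carry no further test. The control group was 4 samples of Control/WT genotype, and the DKO (double knockout) group was 4 samples of Kdm6a/Kdm6b knockout genotype. All 8 came from female mice, as intestinal epithelial cells of the jejunum collected 7 days after ablation, and were immunoprecipitated with an H3K27me3 antibody after formaldehyde fixation and digestion with micrococcal nuclease. Neither the driver of the ablation nor whether each sample was a separate animal is stated in the labels, so the authors' p-values may measure technical spread only.

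Solute carriers are membrane proteins that move small solutes across the cell surface or organelle membranes, and in the intestinal epithelium they take up nutrients and salts from the lumen. H3K27me3 is written by Polycomb repressive complex PRC2, is found over silenced genes, and is removed by UTX and JMJD3, the products of Kdm6a and Kdm6b. Crypts hold the stem and progenitor cells, while many absorptive transporters are used by the mature enterocytes of the villus.

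Values for single samples are not in the table, which leaves sequencing depth unknown and every fold change without a standard error, and the labelled cell type could not be checked against its markers. It does not name the reference group. Directions here are the table's own. By custom, up would mean more H3K27me3 in DKO, but the table does not say so. In bulk chromatin, a change in the share of cells that carry the mark and a change in its amount per cell cannot be told apart.

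Slc14a1 had no entry among the RefSeq promoters used (GRCm38.p6) and could not be assessed by them. That set does not cover every gene, and shares of all promoters below are over its entries only. The promoters of 4 of the 5 members other than Slc14a1 lay wholly inside an up region. The 250 bases before the start of each are shown because they differ widely in CG dinucleotides, the feature of CpG islands where Polycomb binding is commonly found. Each is written 5′ to 3′ on the strand of its gene, with every CG in capitals. The stretches are chr9:123678833-123679082 (minus strand) for Slc6a20a, chr9:123632539-123632788 (minus strand) for Slc6a20b, chr5:53049103-53049352 (plus strand) for Slc34a2 and chr13:55399398-55399647 (plus strand) for Slc34a1.
Slc6a20a: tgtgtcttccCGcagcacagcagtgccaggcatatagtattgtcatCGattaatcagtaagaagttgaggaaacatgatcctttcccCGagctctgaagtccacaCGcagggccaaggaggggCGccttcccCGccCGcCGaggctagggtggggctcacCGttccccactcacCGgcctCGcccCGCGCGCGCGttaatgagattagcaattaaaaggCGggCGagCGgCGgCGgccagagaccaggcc
Slc6a20b: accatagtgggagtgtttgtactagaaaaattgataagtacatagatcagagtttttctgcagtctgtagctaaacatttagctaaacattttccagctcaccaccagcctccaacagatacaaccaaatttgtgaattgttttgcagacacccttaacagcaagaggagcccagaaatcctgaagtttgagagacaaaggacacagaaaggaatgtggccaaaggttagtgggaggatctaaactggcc
Slc34a2: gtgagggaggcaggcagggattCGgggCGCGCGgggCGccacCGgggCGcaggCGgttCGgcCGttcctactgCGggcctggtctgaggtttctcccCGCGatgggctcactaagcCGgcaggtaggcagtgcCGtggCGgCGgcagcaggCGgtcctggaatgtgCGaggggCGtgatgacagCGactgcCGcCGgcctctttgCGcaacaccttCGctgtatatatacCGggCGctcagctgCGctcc
Slc34a1: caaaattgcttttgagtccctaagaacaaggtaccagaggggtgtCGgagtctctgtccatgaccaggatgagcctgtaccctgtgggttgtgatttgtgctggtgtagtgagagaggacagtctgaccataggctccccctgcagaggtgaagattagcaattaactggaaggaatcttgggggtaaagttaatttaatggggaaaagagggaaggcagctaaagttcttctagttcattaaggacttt

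Slc6a20a and Slc34a2 had CG-rich promoters, and their paralogues Slc6a20b and Slc34a1 had CG-poor ones. The Slc34a2 stretch held 28 CG dinucleotides, more than 92.4% of 32851 promoters in the RefSeq table, with a GC content of 69.6%. That of Slc6a20a held 21, more than 83.7% of promoters, with a GC content of 61.2%. Slc34a1 had 1 CG and a GC content of 46.4%. The promoter start used for Slc34a1, chr13:55399648, lies past the RefSeq gene start at chr13:55399622. The last bases of its stretch are thus inside the gene. In Slc6a20b there was no CG at all, as in 7.87% of all promoters, and the GC content was 41.6%. The median over all promoters was 6 CG (interquartile range 2 to 16), and over the 142 other promoters inside an up region it was 6.5 (3.25 to 14). Up regions at these transporters therefore covered promoters from both ends of the CG range. Both Slc39a11 promoters in the RefSeq table, with 7 and 8 CG, lay 309 and 394 kb from the region in that gene.

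**Figure D1:**
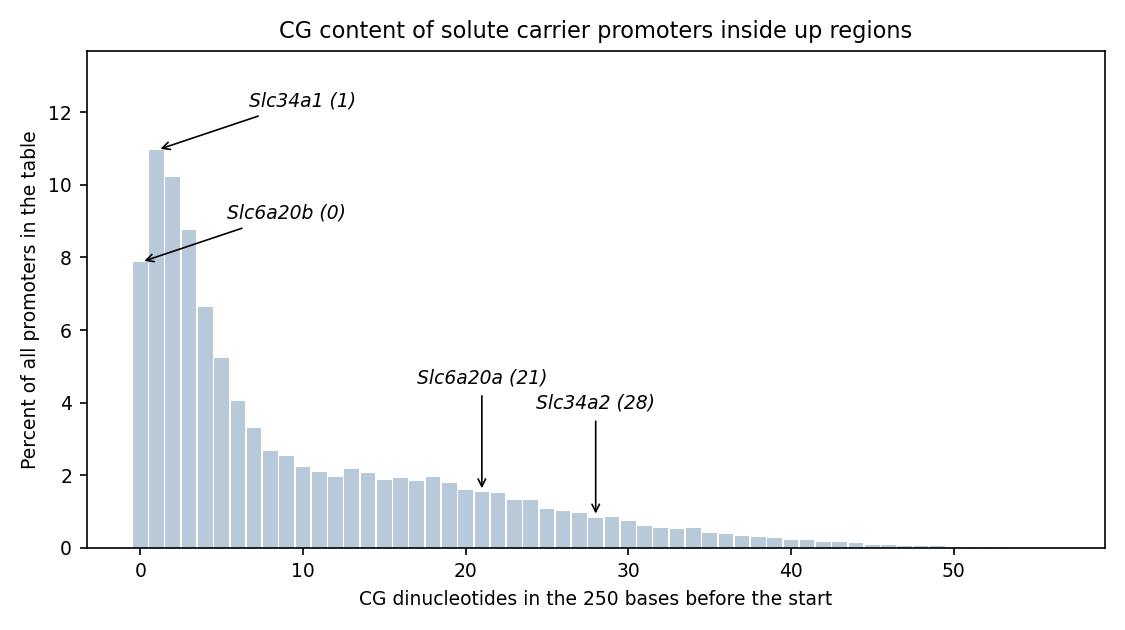
Percent of 32851 RefSeq promoters (vertical axis) by the number of CG dinucleotides in the 250 bases before the start (horizontal axis), with arrows at the 4 solute carrier promoters inside up regions. Slc6a20b (0) and Slc34a1 (1) sit at the CG-poor end, and Slc6a20a (21) and Slc34a2 (28) lie in the CG-rich tail.

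None of the 4 stretches held any of 5 motifs searched on both strands. The TATA box core TATAAA occurred in 12.4% of all promoters of that length. The letters AGATAA, bound by GATA factors, were found in 9.99% of them. The CDX factor motif TTTATNG occurred in 9.81% of promoters. The HNF4 motif CAAAGTCCA was present in 0.384%, and a full HNF1 palindrome in 3 promoters of the table. This says only that these exact letters are not in these 250 bases. Variant forms were not searched, and some are present, such as the letters tatatata in the Slc34a2 stretch and tgataa in the Slc6a20b stretch.

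All 8 solute carrier regions were called up per the authors' deposited table. Among 58963 regions tested by the authors, a number recovered from their p-values and FDR, 0.641% were called, 0.438% as up and 0.204% as down. The 8 had a median log2 fold change of 1.04 (range 0.83 to 1.60) per the authors' deposited table, against 0.96 over all 258 up regions (0.77 to 2.15). Their median width was 24.25 kb against 17.25 kb, and no listed region was wider than 31.5 kb. Longer stretches, such as the Slc6a20 locus, were listed as several regions, so widths and the count of 8 depend on where they were split. Of the 8, 7 were at least 17 kb wide, as were 132 of the 258 up regions. That cutoff is the width of the Slc34a2 region, itself a member, so the 7 follows from it and carries no weight. At an FDR of 0.01, 4 of the 8 remained, where 0.161% of all tested regions were called up, and 4 had a log2 fold change of at least 1, as did 98 of the 258 up regions (0.166% of all regions tested were called up with a change of that size), per the authors' deposited table. No window in the 8 regions was counted as down per the authors' deposited table, and only 1 of the 258 up regions had any. The lead of the solute carrier median came from 1 locus. The 5 regions outside Slc6a20 had a median log2 fold change of 0.90 per the authors' deposited table, below that of up regions as a whole.

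**Figure D2:**
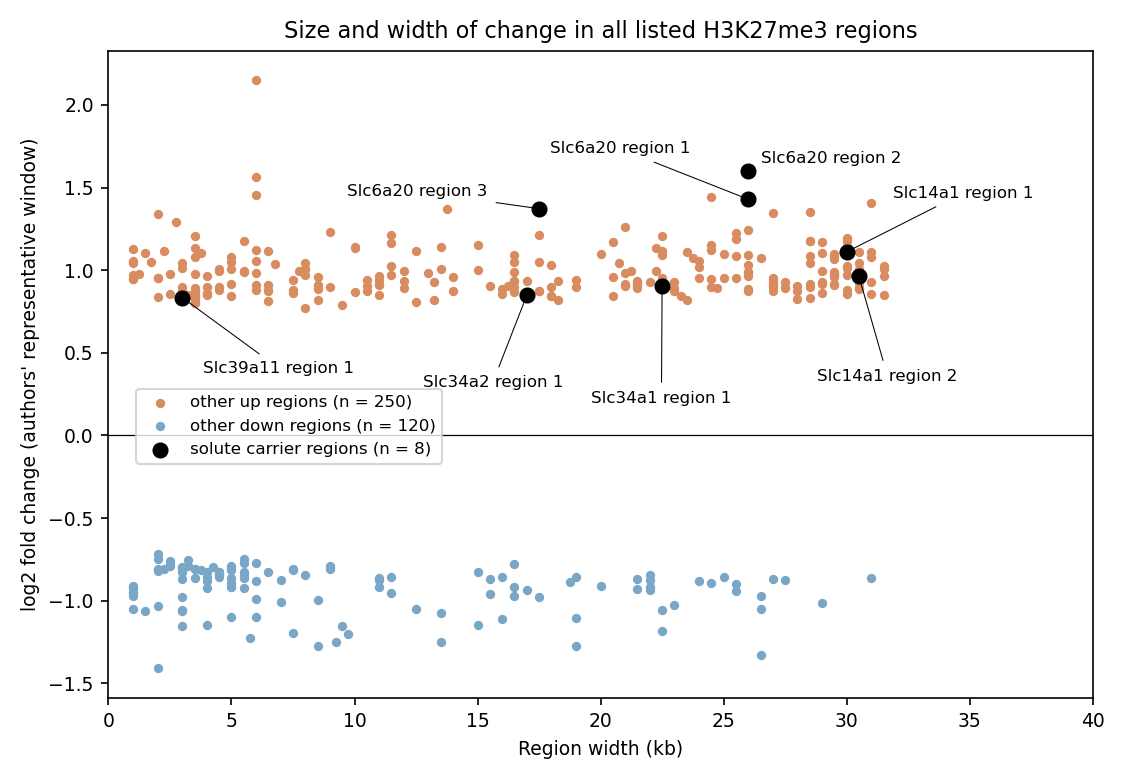
Log2 fold change of the authors' representative window (vertical axis) against region width in kb (horizontal axis) for all 378 listed regions, each point a region, with the 8 solute carrier regions in black and numbered within a locus by genome position (Slc6a20 region 1 is the one shared by both genes, 2 the body and 3 the promoter of Slc6a20a). The 3 Slc6a20 regions (1.37, 1.43 and 1.60) stand above most up regions, and the other 5 lie between 0.83 and 1.11, within the band of up regions.

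The amino acid transporter locus Slc6a20a and Slc6a20b held the strongest change of the 6 genes. Slc6a20a encodes SIT1, a sodium- and chloride-dependent transporter of proline and other imino acids in the apical membrane of intestine and kidney epithelium, and Slc6a20b is its neighbouring paralogue on the same strand. Slc6a20a spans chr9:123636907-123678832 and Slc6a20b chr9:123593823-123632538, both on the minus strand. The middle region, chr9:123644001-123670000, lay wholly within the body of Slc6a20a, over exons, and covered 62.0% of the gene. Its log2 fold change was 1.60 per the authors' deposited table, or 3.03-fold, with an FDR of 2.98e-09. It ranked 2 of 258 up regions by fold change and 2 of all 378 by FDR per the authors' deposited table.

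The promoter of Slc6a20a lay in the region chr9:123671501-123689000, which ran from 10.2 kb before the gene start to 7.33 kb into the gene. This promoter region had a log2 fold change of 1.37 (2.59-fold) and an FDR of 2.80e-07 per the authors' deposited table, rank 8 of 258 up regions by fold change. The remaining region, chr9:123619501-123645500, covered the end of Slc6a20a and the promoter and the first part of Slc6a20b. Its log2 fold change was 1.43 (2.69-fold, FDR 1.44e-06) per the authors' deposited table, rank 6 of 258. Change was thus listed over 96.4% of the body of Slc6a20a, but only over the first 33.7% of Slc6a20b, whose remaining 25.7 kb lay in no listed region.

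Windows, the short intervals the authors tested before merging them into regions, were nearly all up in the regions within the transporter pair, with a lower share around the Slc6a20a promoter. In the region shared by both genes 139 of 141 windows were up (98.6%), and in the body of Slc6a20a 129 of 130 (99.2%), per the authors' deposited table. Around the Slc6a20a promoter 75 of 96 were up (78.1%) per the authors' deposited table. The other 21 there were in neither count, and as the rule for counting is not given they need not be unchanged. Where in the region these 21 lie is not given either.

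The Slc6a20 locus was among the longer runs of up regions. When up regions no more than 5 kb apart were joined, 213 runs resulted, 183 of a single region and 10 of 3 or more. The Slc6a20 run of 3 regions spanned 69.5 kb, rank 7 of 213 by length. Its median log2 fold change of 1.43, from the authors' deposited table, ranked 5 among all 213 runs and 1 among the 10 of 3 or more regions, the next of which had 1.14. The first pair of its regions overlapped by 1500 bp and the second pair was 1500 bp apart, so neighbouring values share or adjoin the same chromatin and are not independent.

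**Figure D3:**
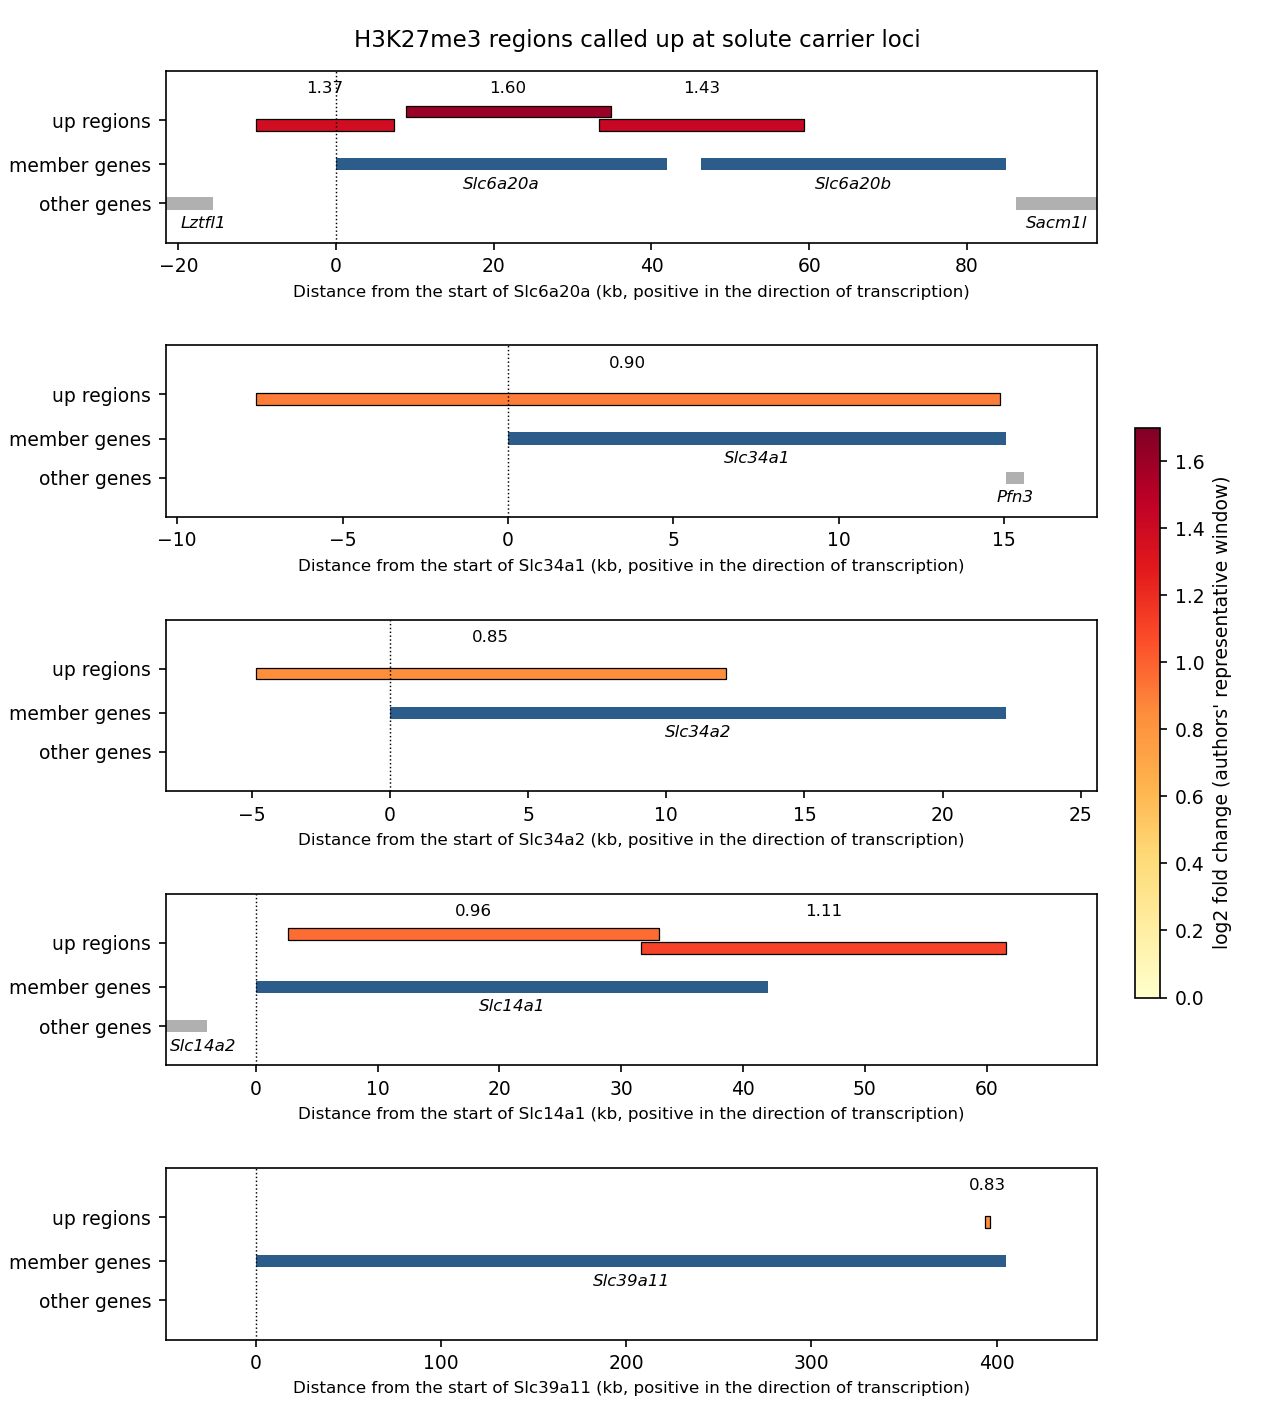
Position of the 8 up regions (boxes, coloured and labelled by log2 fold change of the authors' representative window, staggered in height where neighbours overlap) at the 5 loci, with the 6 solute carrier genes in blue and other protein-coding genes in grey. The horizontal axis is the distance in kb from the start of the named gene, with a scale of its own in each panel. Regions cover most of Slc6a20a, Slc34a1 and Slc14a1, the first part of Slc34a2 and Slc6a20b, and 3.0 kb far inside Slc39a11.

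Genes beside the Slc6a20 pair were mostly without a listed region, as were protein-coding genes in general, 1.31% of which were named by one. Of 8 other protein-coding genes within 200 kb, the table named Ccr9 alone. Ccr9 encodes the chemokine receptor that directs lymphocytes to the small intestine. The table gives its promoter and exons as overlapping the Slc6a20a promoter region, but the RefSeq gene lies 78.2 kb away, and the transcript behind this assignment is unknown here. The nearest coding genes by RefSeq position, Lztfl1 at 5.40 kb and Sacm1l at 26.9 kb, were named by no region. Cxcr6 and Xcr1, which like Ccr9 encode chemokine receptors, lay 117 and 163 kb away and were also named by none.

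Both sodium-phosphate cotransporter genes among the members lay at up regions that included their promoters. Slc34a2 encodes NaPi-IIb, the apical phosphate transporter of the small intestine, and Slc34a1 encodes NaPi-IIa, its counterpart in the kidney proximal tubule. The Slc34a2 region, chr5:53044501-53061500, reached from 4.85 kb before the gene start into its first 12.1 kb, or 54.4% of the gene (chr5:53049353-53071664, plus strand). Its log2 fold change was 0.85 (1.80-fold, FDR 0.0194) per the authors' deposited table, rank 236 of 258 up regions. In the same region 83 of 91 windows were up (91.2%) per the authors' deposited table, so a small fold change went with a high share of windows. No other coding gene was named there, and the nearest, Sel1l3, was 45.6 kb away. The noncoding gene Gm17182, which ends at the Slc34a2 start, lies inside the region by its RefSeq position but is not named in the table.

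At Slc34a1 the region chr13:55392001-55414500 began 7.62 kb before the gene start and covered 98.7% of the gene (chr13:55399622-55414695, plus strand). The authors' deposited table gives it a log2 fold change of 0.90 (1.87-fold, FDR 0.0117), rank 176 of 258 up regions. Only 81 of 124 windows were up there (65.3%) per the authors' deposited table. Whether the 0.90 of the kidney-type gene and the 0.85 of the intestinal one, per the authors' deposited table, differ by more than the replicate spread cannot be computed without values per sample.

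The Slc34a1 region was the only one of the 8 in a gene-dense neighbourhood. It lay among 17 other protein-coding genes within 200 kb, 2 of which the table named, against 1.31% of all protein-coding genes. Both lay within 5 kb of the region, the reach of the naming, so nothing is read from this count. The promoter of Pfn3, a profilin gene, was listed as overlapped, and its RefSeq body lay 187 bp past the region's end. F12, which encodes coagulation factor XII, lay 3.46 kb away. Rgs14, which encodes a regulator of G protein signalling, was 7.31 kb away on the other side and named by no region.

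Slc14a1, the urea transporter gene, had the widest single regions of the 6 genes, though its locus span of 59.0 kb was below the 69.5 kb of Slc6a20. It encodes UT-B, which carries urea across the membranes of red blood cells, kidney vessels and other tissues, the gut among them. The gene spans chr18:78100091-78142119 on the minus strand. The region chr18:78080501-78110500 covered the end of the gene and 19.6 kb past it. Its log2 fold change was 1.11 (2.16-fold, FDR 8.19e-04) per the authors' deposited table, rank 48 of 258, with 114 of 168 windows up (67.9%). The region chr18:78109001-78139500 covered 72.6% of the gene toward its start. Its log2 fold change was 0.96 (1.95-fold, FDR 0.0146) per the authors' deposited table, rank 127 of 258, with 104 of 171 windows up (60.8%).

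These adjoining Slc14a1 regions overlapped by 1500 bp and together spanned 59.0 kb, rank 9 by length among joined runs of up regions. The table marks the second as overlapping an Slc14a1 promoter. By RefSeq the outermost start of the gene lay 2.62 kb beyond that region's edge, and which transcript the table used is unknown here. The sister gene Slc14a2, which encodes the kidney urea transporter UT-A, had its nearer edge 6.64 kb beyond the region and was named by none. The other protein-coding genes within 200 kb, Siglec15 (23.1 kb), Epg5 (43.2 kb) and Pstpip2 (198 kb), were not named either.

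Slc39a11 was the weakest member and the one closest to the authors' limit. It encodes ZIP11, a zinc transporter of the ZIP family. The region chr11:113253501-113256500 was 3.0 kb wide and lay in an intron, 394 kb past the start of the 405 kb gene (chr11:113244851-113650200, minus strand) and 8.65 kb before its end. Its log2 fold change was 0.83 (1.78-fold) per the authors' deposited table, rank 245 of 258. The FDR was 0.0440 per the authors' deposited table, against a limit of 0.05, and regions above that limit were not analysed here. All 6 of its windows were up per the authors' deposited table, but with 6 windows the exact Clopper-Pearson 95% interval of that share runs from 54.1 to 100%. This interval treats the windows as independent, which they are not, as neighbouring windows share reads. It shows only how few the windows are, and says nothing of the spread between samples. The region held 0.740% of the gene's length, and no other protein-coding gene lay within 200 kb.

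**Figure D4:**
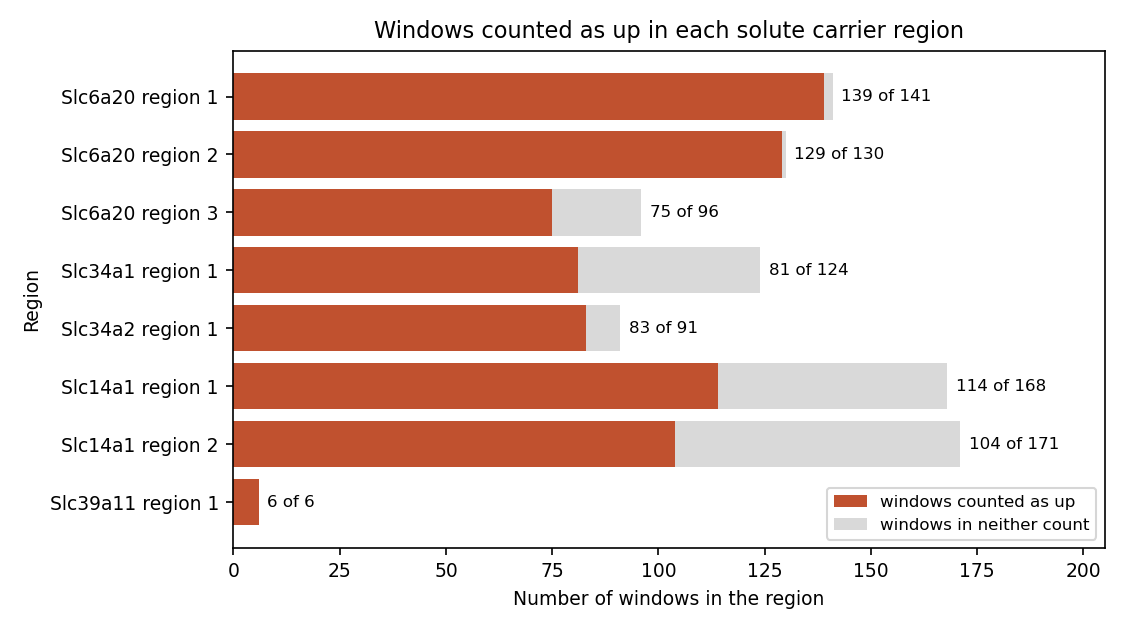
Number of windows in each of the 8 solute carrier regions (horizontal axis), split into windows counted as up (red) and windows in neither count (grey), as the authors' table gives them. The share up ran from 60.8% at the Slc14a1 region toward the gene start to 100% at Slc39a11, which had 6 windows.

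Across the 8 regions, fold change and the share of windows up did not follow the same order. Slc34a2 and Slc39a11 had the lowest log2 fold changes (0.85 and 0.83 per the authors' deposited table) with over 90% of windows up. The first Slc14a1 region had a larger log2 fold change, 1.11 per the authors' deposited table, with 67.9% of windows up. Over 90% of windows were up in 4 of the 8 solute carrier regions and in 75 of all 258 up regions per the authors' deposited table.

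RefSeq holds 375 protein-coding genes of the Slc series, and the 6 members are 1.60% of them. Of all 21900 protein-coding RefSeq genes, 1.31% were named by a listed region and 0.909% by an up region, so the share in the superfamily is near that of genes in general. None of the other 369 overlapped a listed region by RefSeq position, and Slc14a2 was the only one within 10 kb. By family, the members were 2 of 21 SLC6 genes, 2 of 3 SLC34 genes, 1 of 2 SLC14 genes and 1 of 14 SLC39 genes. The remaining SLC34 gene, Slc34a3, another kidney phosphate transporter, lay 52.7 kb from the nearest listed region. Absence from the table shows only that no region there passed the authors' limit.

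In lists of transport genes, the members were the only ones named. The lists and the members were chosen with results of these data known, and their counts stand against the 0.909% of all protein-coding genes named by an up region, so nothing particular to a list is read from them. Of 28 genes for amino acid and peptide transport, the 2 Slc6a20 genes lay at up regions. The other 26 included Slc6a19, the main neutral amino acid transporter of the brush border, Slc15a1, its peptide transporter, and Cltrn, which encodes a partner protein of SLC6 transporters. Of 19 phosphate handling genes 2 were named, of 15 urea, water and arginase genes 1, and of 27 zinc handling genes 1, each being a member described above. None was named among 9 sugar transport genes, 23 for ion and acid-base transport, or 24 for bile acid, lipid, vitamin and iron transport. No gene of the 8 lists lay at a down region, and only 0.397% of all protein-coding genes were named by one, so nothing is read from this either.

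Outside the transporters, 2 of 20 genes for brush border and enterocyte structure lay at up regions, against 0.909% of all protein-coding genes. This list too was chosen with results of these data known, so nothing particular to it is read from the count. Mep1a, which encodes a subunit of the brush border protease meprin, had an exonic region at 0.84 on the log2 scale (FDR 0.0297) per the authors' deposited table. A region within 5 kb of its end had 0.94 (FDR 0.0104) per the authors' deposited table. The other was Vil1, which encodes villin, with 1.56 on the log2 scale per the authors' deposited table, close to the 1.60 of the Slc6a20a body. Slco2a1, the prostaglandin transporter gene, begins with the same letters but belongs to the SLCO family and was not counted as a member. In its promoter region 40 of 41 windows were up, and the log2 fold change was 1.23 (FDR 0.0014) per the authors' deposited table, with 1.01 by the best window.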

How the data were processed

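The only file was a deposited table of the authors' comparison of 4 control with 4 DKO samples, grouped by sample title. The tools, per the submitters' processing notes, included SICER 1.0.3, edgeR, Picard 1.141, SAMtools 1.11, Bowtie 0.12.7 and FastQC 0.10.1, with build mm10. Per the file headers, which are those of csaw, it gives each region's windows, p-value, FDR and log2 fold change. The representative window supplied each region's deposited log2 fold change, and the best window an alternative. It has 0 columns of per-sample values, which allowed no view of depth or normalization and no test. Rows hold unquoted commas in the annotation fields, so all cells after column 14 were read. There P was taken to mean promoter, E exon and I intron. Benjamini-Hochberg adjustment of the p-values, checked on simulated data, gave the deposited FDR with 58963 tests.

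Gene positions and promoters came from RefSeq tables of GRCm38.p6, the same assembly. Of the 6 members, 5 matched a promoter. In 1672 of 1672 overlapping promoter pairs on opposite strands the sequences were reverse complements. The 250 bases before the start were used. The text names all 6 members, genes their regions name, RefSeq genes within 200 kb and genes of 8 lists that a region names. Slc6a19, Slc15a1, Cltrn and Slc34a3, which no region names, and Slco2a1 were added outside this rule after values were seen. A gene of the amino acid list is not reported here. The members and lists were chosen with earlier results of these data known. Scripts used Python 3.11.15, pandas 2.3.3 and SciPy 1.17.1.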

Additional observations from a re-analysis of the deposited data

How the results depend on the processing

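The count of 8 regions naming a solute carrier gene fell to 4 at FDR 0.01, to 4 when the log2 fold change had to reach 1 in size and to 5 when regions within 100 kb were merged, each by construction. At FDR 0.01 and at a fold change of that size, the regions left were the 3 of Slc6a20 and the first of Slc14a1. The count stayed at 8 from overlaps alone and without regions of mixed windows, and was 9 with Slco2a1. With only counted windows in the denominator, the median share of windows up moved from 84.7% to 100%, as none was counted as down. The median log2 fold change was 1.04 by the best window and 0.90 with 1 region per locus, from the authors' deposited table. Promoter overlap held in 5 regions by the table and in 4 by RefSeq start. Counting Slco2a1 and taking 1 region per locus were chosen after the data were seen. No paired analysis was possible because the table holds no value per sample, and leaving out a replicate could not be run for the same reason. Depth is unknown, so a gene without a listed region cannot be called unchanged.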
